A study of Medicago sativa with 15 samples.

Results

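The subject here is a set of 273 genes of alfalfa (Medicago sativa) roots whose read counts varied little over all libraries, out of 164632 gene IDs in the deposited tables. They were selected on their measured levels: CPM (a gene's counts per 1000000 counts of its library), with a mean of at least 20 over the 15 libraries and a highest CPM at most 2.5 times the lowest. The libraries fall into 5 groups of 3. Control roots were kept in normal conditions. The stressed roots received NaHCO3 at 50 mmol/L, which makes the medium alkaline, and were taken after 4, 8, 12 or 24 h. All were labelled as seedling roots, no further strain or age is given, and the controls carry no time of their own. Nothing in the labels ties replicates to separate plants, so p-values cover no more than the differences among these libraries, which may be technical.

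Genes expressed at an even level in a tissue often serve basic needs of every cell, such as protein synthesis, energy metabolism and the cytoskeleton, and such genes are commonly used as internal references when a transcript is measured by quantitative PCR. Bicarbonate at high pH limits the iron and phosphate a root can take up. It comes here with sodium, and roots answer such stress with broad changes in transcription. The files do not pair IDs with gene names, and none of the IDs (0 of 164632) occurs in the RefSeq gene table for alfalfa. Functions, root marker genes and sequences are therefore not given.

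The libraries held between 6863315 and 15180708 counts. In each stressed group 1 library was shallow, with at most 7621064 counts against 11266060 or more in the other 11, and lay between the other 2 of its group at 72.1% to 79.3% of the genes with at least 300 counts in the group. They were replicate 2 at 4 h, replicate 3 at 8 h, and replicate 1 at both 12 and 24 h. At the steady genes they lay between the other 2 in 67.4% to 70.7% of cases, against 26.0% to 37.0% for the control libraries and 11.4% to 19.4% for the other 8 stressed libraries. The steady genes were therefore also sought without these 4 libraries. That gave 294 genes. Leaving out libraries can only narrow the ratio, so the 273 kept that limit by construction. Of the 273, 219 had both their lowest and their highest value outside the shallow libraries. Calls of changed genes were far fewer without them, in a fit that also has fewer libraries: edgeR then called 32, 11, 0 and 101 of 71665 genes at the 4 times, against 13005, 8506, 4999 and 7870 of 68605 with them, and the part of the shallow libraries in this was not tested. At 12 h, where the count was 0, 7811 genes had an unadjusted p below 0.05 without them, and DESeq2 was not run without them.

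Few abundant genes kept within the limit. Of the 9715 genes with a mean of at least 20 CPM, 273 did so, or 2.81%. The ratio of highest to lowest CPM had a median of 2.24 in them (quartiles 2.05 and 2.38), and 10.7 in the other 9442 genes, of which 263 had a library at 0. Most of the 273 lay near the limit: 218 had a ratio above 2, 55 had one of at most 2, and 1 gene had one of at most 1.5. These values chose the genes and describe them only.

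**Figure D1:**
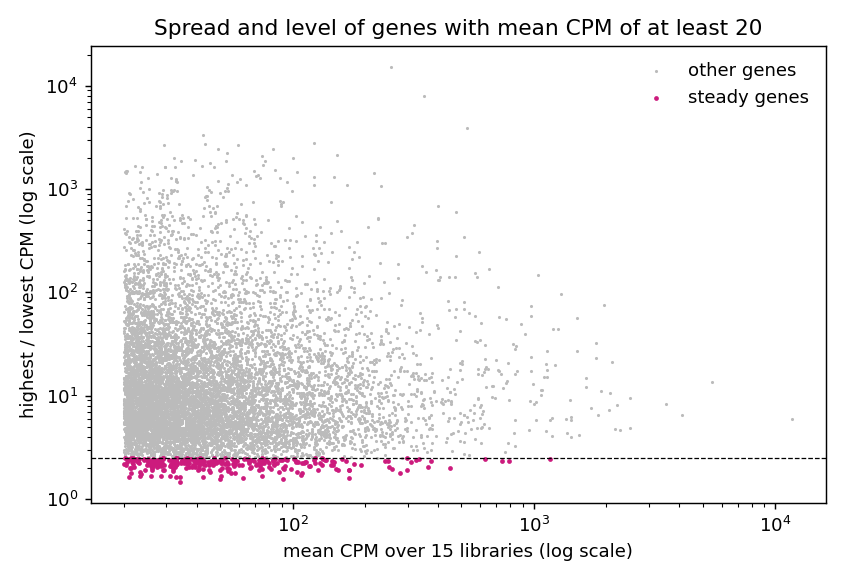
Ratio of highest to lowest CPM against mean CPM for genes with a mean of at least 20 CPM, both axes logarithmic, 1 point per gene (263 genes with a library at 0 are not drawn). The 273 steady genes lie under the dashed line at 2.5, at levels from 20.1 to 1162 CPM, beneath a cloud whose median ratio was 10.7.

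The genes on each side of the limits had nearly the same values. MS.gene64439, MS.gene041212 and MS.gene028006 were the last inside, with ratios of 2.497, 2.495 and 2.495. MS.gene25221, MS.gene049659 and MS.gene89221 were the first outside, with 2.504, 2.505 and 2.507. For the level, MS.gene78201, MS.gene79396 and MS.gene02196 were just inside at means of 20.1, 20.3 and 20.3 CPM. Just outside were MS.gene010105, MS.gene019939 and MS.gene071734 at 19.9, 19.5 and 19.5 CPM. MS.gene010105 had a ratio of 1.86, below the first quartile of the set.

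Adding the stressed groups to the controls one by one removed most genes. Of the 9715 abundant genes, 7183 (73.9%) stayed within 2.5 times over the 3 controls. With the 4 h libraries added 1839 were left, with 8 h 766, with 12 h 402 and with 24 h the 273. A range can only widen as libraries are added. Any single stressed group joined to the controls, 6 libraries in each case, left 2150 genes with 8 h, 2223 with 12 h and 2530 with 24 h, all more than the 1839 with 4 h. Among the 12 stressed libraries by themselves 562 genes kept the limit, and 48.6% of those kept it with the controls as well. Over all 3 libraries of a group, 5603, 6624, 5668 and 7425 genes kept the limit at 4, 8, 12 and 24 h, against the 7183 in the controls. Over 2 libraries, 8123 to 8946 genes did so in pairs of controls. In the pairs left at 4, 8, 12 and 24 h without the shallow library, 5737, 6737, 5767 and 7545 did. The shallow library mostly lay between those 2, which kept most of the range of their group. They are thus not matched to the control pairs.

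**Figure D2:**
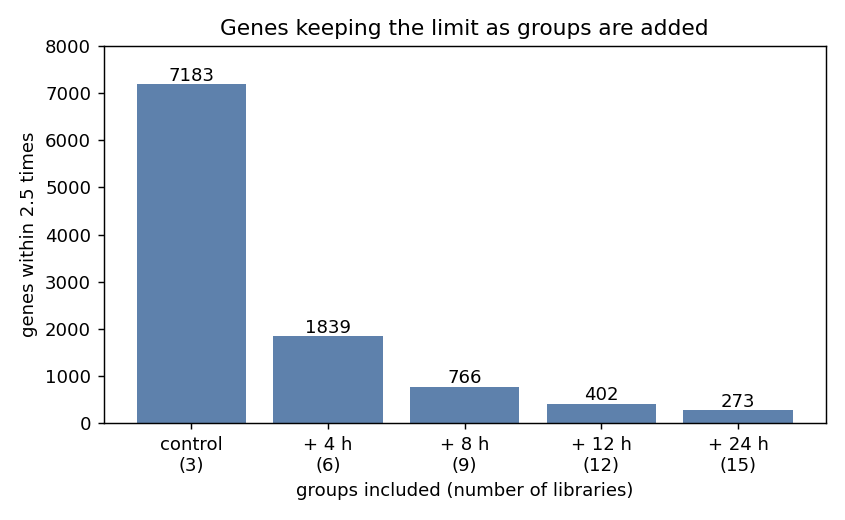
Number of genes with a mean of at least 20 CPM whose CPM stays within 2.5 times, for the controls and as the groups at 4, 8, 12 and 24 h are added (number of libraries in brackets). The count falls from 7183 to 1839 with the first stressed group and ends at 273.

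The steady genes covered a wide range of levels. In FPKM (the level per coding length and library total, which allows genes to be compared), their means ran from 3.80 to 2049, with a median of 34.0 and quartiles of 19.6 and 75.7. The other abundant genes had a median of 38.2 FPKM and reached 16893. In CPM the medians were in the other order, 44.9 in the steady and 38.5 in the other abundant genes. The highest steady gene had a mean of 1162 CPM, while the highest of the other genes reached 11757. The share of genes that were steady was 2.45% between 20 and 50 CPM (150 of 6115), 3.28% between 50 and 100 CPM (70 of 2137), 3.85% between 100 and 200 CPM (36 of 935) and 3.22% at 200 CPM or more (17 of 528).

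The 4 steadiest genes by ratio had means from 13.9 to 219 FPKM. MS.gene33716 (34.4 ± 3.94 FPKM, SD over 15 libraries, coding length 993 nt) had the lowest ratio, 1.45. Its CPM was 39.7, 34.6 and 30.4 in control replicates 1, 2 and 3, 28.7, 28.1 and 29.6 at 4 h, 31.8, 40.6 and 36.1 at 8 h, and, at 12 and 24 h, 35.0, 35.8 and 36.1 and then 35.0, 32.3 and 38.6. Its 3 lowest libraries were thus those at 4 h, while the other groups overlapped. MS.gene018317 (13.9 ± 1.88 FPKM, 3612 nt, ratio 1.55) had 40.7, 59.4 and 56.7 CPM in the controls, 57.3, 56.6 and 59.8 at 4 h, 51.6, 38.6 and 45.3 at 8 h, 47.1, 45.5 and 51.0 at 12 h, and 46.2, 44.0 and 50.8 at 24 h. Its controls spanned nearly its whole range: replicate 1 had the lowest value but 1 and replicate 2 the highest but 1.

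MS.gene01776 (105 ± 13.6 FPKM, 870 nt, ratio 1.57) had 78.0, 104 and 115 CPM in the controls, 83.5, 101 and 89.8 at 4 h, 87.0, 80.9 and 91.7 at 8 h, 106, 85.0 and 104 at 12 h, and 85.3, 73.0 and 86.4 at 24 h. All 4 stressed groups overlapped its controls. MS.gene010750 (219 ± 30.5 FPKM, 780 nt, ratio 1.59) had 197, 175 and 146 CPM in the controls, 135, 136 and 142 at 4 h, 189, 176 and 189 at 8 h, 188, 164 and 214 at 12 h, and 172, 157 and 183 at 24 h. As in MS.gene33716, its 3 libraries at 4 h were below all 12 others. How often an abundant gene has a group apart from all other libraries was not counted. Nothing is therefore read from this pattern in any named gene.

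The 4 most abundant members per length had wider ranges, with ratios from 2.01 to 2.46. MS.gene032579 (2049 ± 545 FPKM, 567 nt, ratio 2.46) stood at 860, 1172 and 1313 CPM in the controls and 929, 1208 and 1373 at 4 h. It then had 1500, 1556 and 1658 CPM at 8 h, 690, 809 and 673 at 12 h, and 1251, 1173 and 1263 at 24 h. The libraries at 8 h lay above every other library and those at 12 h below every other one, but edgeR's test did not pass (adjusted p = 0.253 at 8 h, 0.217 at 12 h and 0.0634 over all times). MS.gene77332 (1514 ± 410 FPKM, 486 nt, ratio 2.36) had means of 587 ± 138 CPM in the controls, 574 ± 75.3 at 4 h, 726 ± 65.0 at 8 h, 904 ± 215 at 12 h, then 887 ± 233 at 24 h (SD, n = 3). Its lowest library was control replicate 1 at 485 CPM and its highest 24 h replicate 2 at 1142 CPM, and each stressed group overlapped the controls.

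MS.gene67485 (1347 ± 468 FPKM, 468 nt, ratio 2.42) had 398, 378 and 516 CPM in the controls, 394, 431 and 390 at 4 h, 888, 735 and 862 at 8 h, 668, 415 and 905 at 12 h, and 843, 917 and 713 at 24 h. Its 8 h and 24 h libraries were all above the controls, while 12 h replicate 2, at 415 CPM, lay within the range of the controls. Its log2 fold change of 1.01 ± 0.36 (SE) at 24 h did not pass (edgeR adjusted p = 0.0771). MS.gene64638 (1002 ± 198 FPKM, 450 nt, ratio 2.01) kept group means between 376 ± 47.4 CPM at 4 h and 523 ± 159 CPM at 12 h, against 486 ± 64.9 in the controls (SD, n = 3). At the other end, MS.gene045203 (3.80 ± 1.05 FPKM, 5472 nt) and MS.gene72410 (3.98 ± 1.06 FPKM, 6699 nt) were the lowest per length. MS.gene045203 had 30.4, 29.5 and 31.0 CPM at 4 h, above all other libraries, whose highest was 24.2 CPM.

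**Figure D3:**
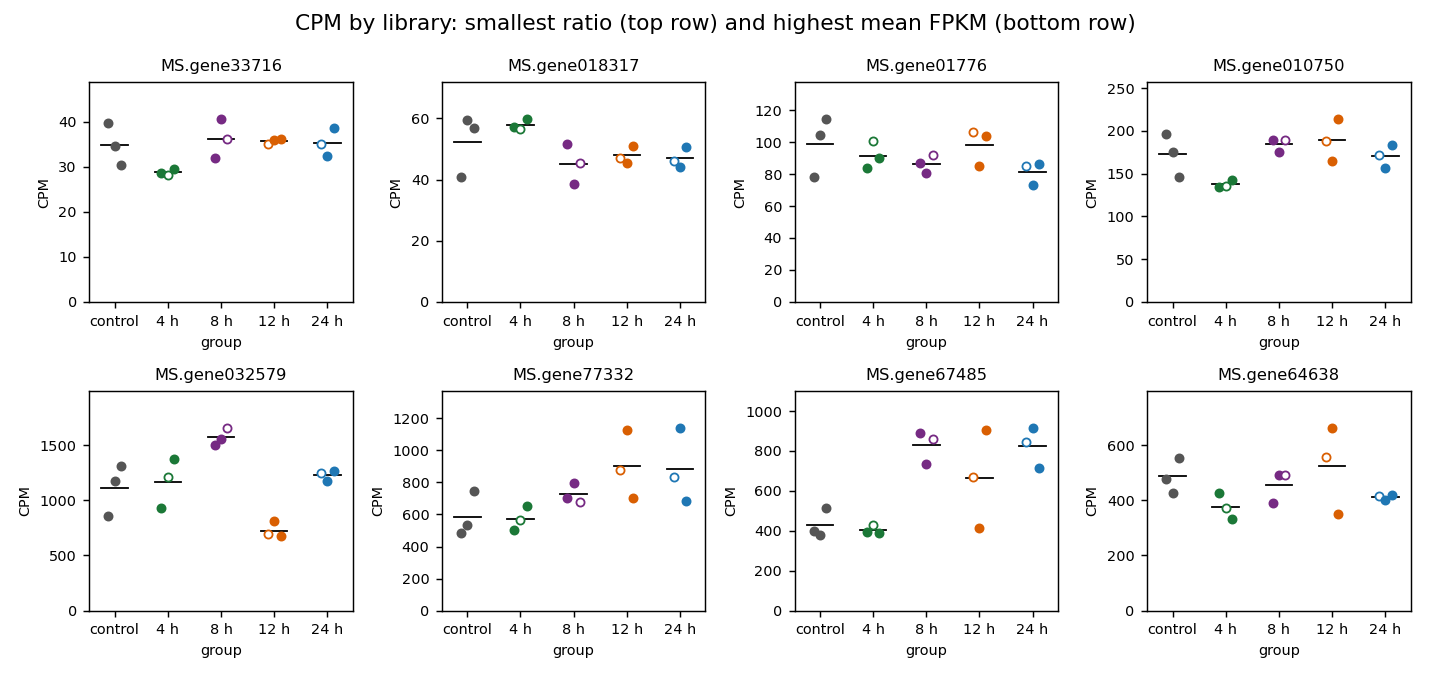
CPM in each of the 15 libraries, by group, for the 4 steady genes with the lowest ratio (top) and the 4 with the highest mean FPKM (bottom). Lines are means of 3 libraries, open points are the shallow libraries, and each axis starts at 0. MS.gene33716 ranges from 28.1 to 40.6 CPM, and MS.gene032579 from 673 CPM at 12 h to 1658 CPM at 8 h.

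Each of the 273 genes varied more than counting alone would give, so they were steady only in the sense of the limit. The lowest count of a steady gene in any library was 89, so counting error was small: it would give a coefficient of variation (CV, SD over mean) of 0.889% to 6.76%, with a median of 4.52%. The CV over 15 libraries was 11.5% to 34.8%, with a median of 23.2%, and the variance exceeded the counting variance 4.60 to 923 times (median 30.4). The other abundant genes had a median CV of 60.9%. No molecular identifiers are described, so reads may be copies of one molecule and these figures cover counting error only.

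In log2 CPM the SD within groups had a median of 0.256 in the steady genes, and the SD of the 5 group means had a median of 0.255. Without the 4 shallow libraries these were 0.318 and 0.252. A mean of several libraries varies less than a single library, so no order of the 2 kinds of SD is read as a result. The second was the larger at 133 of 273 genes (48.7%, against 62.4% of the other abundant genes without a 0), and without the shallow libraries at 90 (33.0%, against 48.4%). In those other genes the medians were 0.652 within groups and 0.787 between group means, and 0.809 and 0.801 without the shallow libraries. Over pairs of libraries, the median SD of the steady genes was 0.155 to 0.222 in the 3 pairs of controls. In the pairs of stressed libraries left without the shallow one it was 0.239, 0.251, 0.271 and 0.219 in the order of the times. For the other genes it was 0.287 to 0.424 in the control pairs, and 0.751, 0.590, 0.752 and 0.464 in the stressed pairs. The stressed pairs are mostly the outer 2 libraries of their group, and the control pairs any 2 of 3. They are thus not matched. The limit caps the spread of the steady genes in each group, so these figures are a description.

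The high and low points of the set were spread over the groups. The highest group mean fell in the controls and at 4 h for 57 genes each, and at 8, 12 and 24 h for 56, 51 and 52 (20.9%, 20.9%, 20.5%, 18.7% and 19.0% in the order of the groups, against 25.9%, 23.1%, 17.3%, 16.3% and 17.4% of the other abundant genes). The lowest fell in the controls for 66 and at 4 h for 65, and at the later times for 49, 46 and 47 (24.2%, 23.8%, 17.9%, 16.8% and 17.2%, against 28.1%, 21.7%, 16.6%, 13.9% and 19.6%). The shallow libraries held the highest value of 25 genes and the lowest of 29, or 5 to 8 highest values per library against 15 to 33 in the other libraries. Those 25 were 9.16% of the steady genes, and 5.93% of the other abundant genes had their highest value in a shallow library. Together the 273 genes took 2.03% to 2.30% of the counts of a library, with 2.10 ± 0.0829% in the controls, 2.17 ± 0.0210% at 4 h, 2.29 ± 0.0285% at 8 h, 2.21 ± 0.0450% at 12 h, then 2.17 ± 0.0245% at 24 h (SD, n = 3). The median deviation of the genes from their own mean stayed between -0.05 and 0.06 log2 units in every library.

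Each time was set against the controls in a fit over all genes. Of the 273, 0 were called at 4 h, 1 at 8 h, 0 at 12 h, then 2 at 24 h by edgeR's quasi-likelihood test (adjusted p below 0.05), where 19.0%, 12.4%, 7.29% and 11.5% of all 68605 genes tested were called. At an unadjusted p below 0.05 there were 17, 20, 12 and 22, where 34.2%, 28.9%, 23.9% and 27.7% of all genes were. The test over the 4 times together called 1 of them and 32.6% of all genes. DESeq2 called 13, 16, 6 and 9 at the 4 times and 25 over all times, where it called 27.8%, 21.3%, 15.2%, 20.1% and 49.1% of the genes it gave an adjusted p. The shares over all genes themselves moved with single libraries: with 1 left out edgeR called as few as 6.97% at 4 h (without 4 h replicate 2), 3.85% at 8 h (without 8 h replicate 3), 1.59% at 12 h (without 12 h replicate 1) and 3.50% at 24 h (without 24 h replicate 1). The limit used these same libraries, so nothing is read from the low counts. The 4 comparisons share the controls. Fitted log2 fold changes of the set ran from -0.96 to 1.10 with medians of 0.04, 0.10, 0.07 and 0.07 at 4, 8, 12 and 24 h, against -0.21, -0.10, 0.00 and -0.08 over all genes, and 132 members stayed within 0.5 of the controls at all 4 times.

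The 2 members called by edgeR were higher under stress. DESeq2 called members in both directions: 8, 11, 3 and 7 higher and 5, 5, 3 and 2 lower at 4, 8, 12 and 24 h. Of all genes it called 7086, 5867, 4460 and 5545 higher and 11922, 8677, 5952 and 8167 lower. MS.gene033508 (4251 nt, 20.9 FPKM) had 60.1, 62.0 and 63.8 CPM in the controls, 61.3, 66.9 and 72.5 at 4 h, 119, 127 and 113 at 8 h, 64.8, 67.2 and 78.2 at 12 h, and 120, 142 and 117 at 24 h. The 8 h and 24 h libraries lay well above the others, and those at 4 and 12 h near the controls. Its log2 fold change was 1.00 ± 0.31 (SE) at 8 h (edgeR adjusted p = 0.0482) and 1.10 ± 0.31 at 24 h (0.0346). The fit shares spread among groups and genes, so this SE is not the scatter of its own replicates alone. MS.gene037371 (1251 nt, 52.6 FPKM) had 43.5, 37.3 and 39.1 CPM in the controls, 54.3, 68.9 and 76.6 at 4 h, 70.7, 82.3 and 80.2 at 8 h, 72.1, 52.2 and 73.5 at 12 h, and 80.8, 81.4 and 75.1 at 24 h. All 12 stressed libraries were above its controls, and its log2 fold change at 24 h was 1.06 ± 0.33 (edgeR adjusted p = 0.0487). At 8 h, with 1.01 ± 0.33, it did not pass (0.0558), nor did it over all times together (0.101), where MS.gene033508 was the 1 member called (0.0233). edgeR called MS.gene037371 at 8 h in 4 of 15 fits with 1 library left out. DESeq2 called MS.gene037371 at 4 h (adjusted p = 0.0330) and 8 h (0.00906) too, but not at 12 h (0.0913).

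The edgeR calls of these 2 members were near the threshold. That of MS.gene033508 was lost in 11 of 15 fits with 1 library left out at 8 h (edgeR adjusted p 0.0377 to 0.130) and in 9 of 15 at 24 h (0.0345 to 0.113), in both cases without any 1 of the controls or 24 h libraries, and without 4 h replicate 2, 8 h replicate 3 or 12 h replicate 1. At 8 h it was also lost without 8 h replicate 1 or 2. That of MS.gene037371 at 24 h was lost in 12 of 15 (0.0428 to 0.156), that is, without any library other than 4 h replicates 1 and 3 and 12 h replicate 2. Without the 4 shallow libraries neither passed (edgeR adjusted p = 0.375 and 0.369 for MS.gene033508 at 8 and 24 h, 0.429 for MS.gene037371 at 24 h). Over all alternatives, DESeq2 included, the adjusted p ran from 0.00515 to 0.375 and from 0.00160 to 0.369 for MS.gene033508, and from 0.00572 to 0.429 for MS.gene037371. The fold changes stayed at 0.949 to 1.15 on the log2 scale over all these fits and with other scalings, filters and tools.

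Members whose stressed and control libraries did not overlap were counted as well. In 8 genes all 12 stressed libraries were above the 3 controls and in 2 genes all were below, where 6.16% and 9.17% of the 9715 abundant genes did so. In 12 members 1 stress time lay wholly above and another wholly below the controls, where 7.57% of the abundant genes did so. The 2 that were lower throughout, singled out after their values were seen, were MS.gene010201 and MS.gene056823. MS.gene010201 (2028 nt) had 52.4, 56.2 and 51.4 CPM in the controls and 27.4 to 47.4 CPM in the stressed libraries, with means of 28.8 ± 1.51 at 4 h, 30.6 ± 3.23 at 8 h, 43.5 ± 3.45 at 12 h, then 35.4 ± 6.61 at 24 h (SD, n = 3). MS.gene056823 (1077 nt) had 476, 484 and 620 CPM in the controls and means of 299 ± 31.3 at 4 h, 294 ± 28.2 at 8 h, 328 ± 47.3 at 12 h, then 420 ± 17.6 at 24 h. Neither passed edgeR's test at any time (at 4 h, log2 fold change -0.85 ± 0.33 with adjusted p = 0.0777, and -0.78 ± 0.31 with 0.0875).

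The second principal component of the set's remaining variation put the 4 h and 8 h libraries apart from the others. On the first 2 components those at 12 h lay near or between the controls and the 24 h libraries. A principal component analysis of the log2 CPM of the steady genes, centred by gene and library, put 18.1% of the variance on the first component and 14.8% on the second. It used all 15 libraries, with the shallow ones that mostly lay between the others of their group. On the first the controls had loadings of 0.229 to 0.437, the 4 h libraries 0.112 to 0.195 and the 8 h libraries -0.433 to -0.156. On the second the libraries at 4 h (-0.440 to -0.321) and 8 h (-0.261 to -0.186) were on one side, and the controls and those at 12 and 24 h (0.0904 to 0.277) on the other. The 12 h libraries were split on the first component, with replicate 2 at 0.207 on the side of the controls and replicate 3 at -0.175 beside the 24 h libraries. In the other abundant genes the first component held 28.8% of the variance, and the loadings of the libraries on it are not given. The rule used the same values, so the components are a description. Single pairs of steady genes had a median correlation of 0.00 over the 15 libraries (37128 pairs), given as a description.

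**Figure D4:**
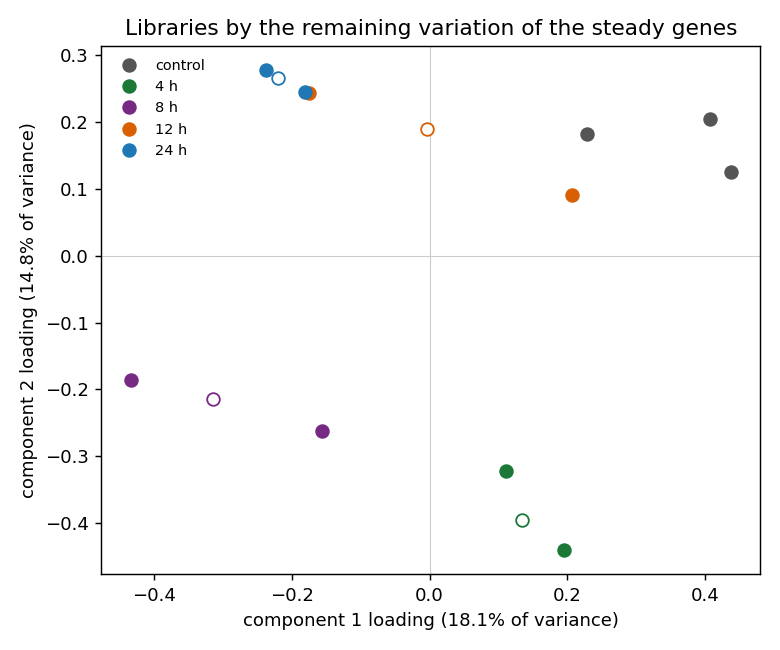
Loadings of the 15 libraries on the first and second principal components of the steady genes (log2 CPM centred by gene and library), coloured by group, with the shallow libraries open. The 4 h and 8 h libraries lie below 0 on the second component and all others above it.

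Coding length was the property that the rule did not use. It follows from the count, the library total and the FPKM, and the same length came out in every library. In the steady genes it had a median of 1311 nt, with quartiles of 837 and 1998 nt, and ran from 267 to 7107 nt. The other abundant genes had a median of 1113 nt, with quartiles of 675 and 1692 nt. The share of steady genes was 1.81% under 600 nt (34 of 1879 genes), 2.41% from 600 nt (81 of 3362), 3.02% from 1200 nt (69 of 2288), 4.24% from 1800 nt (43 of 1015) and 3.93% from 2400 nt (46 of 1171). Genes are not replicates and copies of one gene may be among them, so no test is given.

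The difference in length depended on level and on the limit. Between 20 and 50 CPM the medians were 1313 nt in steady and 1158 nt in other genes, between 50 and 100 CPM 1479 and 1074 nt, between 100 and 200 CPM 1206 and 1050 nt, and at 200 CPM or more 864 and 873 nt. The 55 genes with a ratio of at most 2 had a median of 999 nt, below that of the others, while the 218 with a ratio above 2 had 1361 nt. Genes chosen by the same limits on the 3 controls alone had a median of 1080 nt, and the remaining genes 1161 nt. The remaining genes were cut by their mean over all 15 libraries, so these 2 medians do not share a level limit. Outside the limit the median was 1383 nt up to a ratio of 3, 1239 nt up to 4, 1217 nt up to 10 and 1035 nt above 10. Median length thus rose from the widest ratios to those just above the limit, and was lower again in the 55 steadiest genes. The quartiles were 660 and 1977 nt in the 55 genes and 870 and 1998 nt in the 218, so their lengths overlapped widely.

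**Figure D5:**
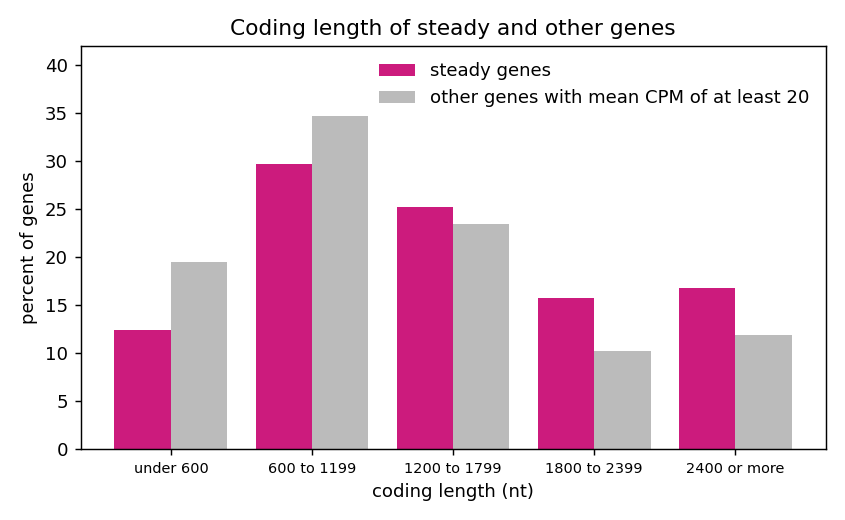
Share of the 273 steady genes and of the 9442 other abundant genes in 5 classes of coding length (nt). Steady genes hold a smaller share under 600 nt (12.5% against 19.5%) and a larger one at 2400 nt or more (16.8% against 11.9%).

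Level per length differed widely between the longest and the shortest members. MS.gene067412, the longest at 7107 nt, had a mean of 101 CPM but only 14.2 ± 3.75 FPKM, and MS.gene72410, at 6699 nt, 26.7 CPM and 3.98 FPKM. MS.gene26408, the shortest at 267 nt, had 241 CPM and 904 ± 170 FPKM, and MS.gene75612, at 297 nt, 40.7 CPM and 137 FPKM. The replicates of MS.gene067412 at 4 h, at 60.6, 91.6 and 148 CPM, held both its lowest and its highest library, so that its range came from 1 group. MS.gene26408 was lowest at 12 h, with 181, 204 and 135 CPM against 225 CPM or more in all other libraries. Steady genes under 600 nt had medians of 179 FPKM and 78.2 CPM, and those of 2400 nt or more 13.6 FPKM and 39.6 CPM. FPKM divides by length and the rule sets a floor on CPM, so much of the contrast in FPKM is given by construction.

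Copies of one gene among the members could not be told from the files. The 273 genes had 231 different lengths, and 78 of them shared their length with another member, in 51 pairs. The highest correlation of log2 CPM in such a pair was 0.742 (MS.gene07406 and MS.gene91302, both 1122 nt, singled out after their values were seen). Above 0.8 were 0 of the 51 and 88 of all 37128 pairs. So few of all pairs exceeded 0.8 that 0 of 51 tells nothing about pairs of equal length. Alfalfa is tetraploid, and how reads that match several copies were counted is not given in the sources used here, so the level of each ID is uncertain to that extent. IDs with 6 digits made up 46.9% of the members, 45.2% of the other abundant genes and 45.3% of all IDs.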

How the data were processed

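The authors deposited 2 tables of the whole series. One gives unnormalised counts as whole numbers. The other gives FPKM as made by the authors, and its values equal the count over the library total and 1 fixed length per gene. Because 96.0% of the lengths are multiples of 3, they are taken as coding length. For the aligner, counter, strand setting, multiple matches and genome build, the sources used here give nothing. Libraries were made with a SMARTer kit from column-purified RNA, per the labels' protocols. Groups and replicate numbers came from the titles; the treatment field reads alkaline stress for the controls too.

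CPM, ratios and lengths were computed in Python 3.11.15 (pandas 2.3.3). The test was edgeR 4.0.16 under R 4.3.3 (filterByExpr, TMM, 5 groups, 15 libraries, glmQLFit and glmQLFTest, two-sided, Benjamini-Hochberg over 68605 genes, threshold 0.05). All 273 steady genes passed the filter. The standard error is the log2 fold change over the square root of F. The fit estimates spread over all groups and draws it toward that of other genes. Neither this error nor the p-values thus reflect the scatter of a gene's own replicates alone. On simulated data, with the same spread set for every gene, the fit found all 16-fold changes but missed most 4-fold ones. The limits of that check were reset after a first version failed. The spread set was not that of the steady genes, so the check does not give the power at them. Few calls do not show a lack of change. Genes named are the 4 highest and 2 lowest in FPKM, the 4 lowest in ratio and 3 on each side of both limits. The 2 longest, the 2 shortest and those called by edgeR are named too. The 2 genes lower in all stressed libraries and the pair of equal length were named after their values were seen. Alternatives were other limits, TMM or DESeq2 1.42.0 scaling, no filter, DESeq2, the replicate number as a block, 11 libraries, the controls alone, and each library left out. The members, the rule and the alternatives were chosen with earlier results of these data known, and the lengths under each alternative were added after seeing the data.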

Additional observations from a re-analysis of the deposited data

Results flagged for a closer look

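In 2 of the named genes every library of one stress time was above the 3 controls and every library of another was below them. This was so in 12 of the 273 steady genes and in 7.57% of the abundant genes. The difference between those times was not tested. MS.gene032579, the steady gene with the highest FPKM, was above the controls at 8 h and below them at 12 h, and its mean CPM differed by 1.12 on the log2 scale between these times. MS.gene028006 was above the controls at 24 h (161, 153 and 164 CPM against 115, 137 and 118) and below them at 12 h (86.0, 98.4 and 65.6 CPM), a difference of 0.93 on the log2 scale. Against the controls neither gene passed edgeR's test: the adjusted p was 0.253 at 8 h and 0.217 at 12 h for MS.gene032579, and 0.237 at 12 h and 0.359 at 24 h for MS.gene028006, with 0.0634 and 0.0844 over all times.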

How the results depend on the processing

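The number of steady genes followed its limits. It was 55 with a ratio of at most 2, 578 with at most 3, 349 with a mean of at least 10 CPM and 123 with at least 50 CPM, while the 3 controls alone, used for both mean and ratio, gave 7197. It was 251 with TMM scaling (226 of them among the 273), 240 with DESeq2 size factors (210 among the 273), and 274 to 356 with 1 library left out. Of the genes chosen on 14 libraries, 76.4% (without 4 h replicate 3) to 98.9% (without 24 h replicate 1) were among the 273. The median coding length was 999 nt with a ratio of at most 2, below the 1116 nt of the other genes there. With the controls alone it was 1080 nt. The other genes, cut by their mean over all 15 libraries, had 1161 nt there. With each of the other settings the median of the chosen genes was 1305 to 1406 nt.

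Calls among the steady genes were few and changed with most settings. DESeq2 called 13, 16, 6 and 9 at 4, 8, 12 and 24 h and 25 over all times, and 27.8%, 21.3%, 15.2%, 20.1% and 49.1% of all genes. edgeR with DESeq2 size factors called 0 at 8 h and 1 at 24 h, and 8459 and 7826 of all 68605 genes. Without a filter, with the replicate block, and with 11 libraries edgeR called 0 at 8 h and 0 at 24 h, and over all times 0, 1 and 0. Of all genes at 8 h, 24 h and over all times, it called 9465, 9028 and 30735 of 108456 without a filter. With the replicate block it called 6343, 6027 and 15924 of 68605, and with 11 libraries 11, 101 and 392 of 71665. With 1 library left out it called 0 to 1 at 4 h, 0 to 5 at 8 h, 0 to 3 at 24 h and 0 to 3 over all times, where it called 6.97% to 19.1%, 3.85% to 13.9%, 3.50% to 12.9% and 19.4% to 32.6% of all genes (at 12 h, 0 members and 1.59% to 8.56%). The number of all genes called fell by over 1.5 times at each of 4, 8, 12 and 24 h without control replicate 1 or 2, and at 8 and 12 h without control replicate 3. It also did so at 4 h without 4 h replicate 2 or 3, at 8 h without any 8 h library, at 12 h without 12 h replicate 1 or 3, 8 h replicate 3 or 24 h replicate 1, at 24 h without any 24 h library, and over all times without 4 h replicate 2. The cause of these changes was not tested. Same-numbered libraries did not deviate together (30 pairs, r from -0.047 to 0.156, against -0.156 to 0.167 in 60 pairs with different numbers), so the numbers were not taken as pairs. With the replicate block 9858, 6343, 3359 and 6027 of 68605 genes were called at 4, 8, 12 and 24 h, against 13005, 8506, 4999 and 7870 without it, and MS.gene033508 had adjusted p of 0.0774 and 0.0590 at 8 and 24 h and MS.gene037371 one of 0.0767 at 24 h (edgeR). Whether depth limits the steady genes was not tested.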
